A study of Mus musculus with 17 samples.

Results

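Transforming growth factor-β (TGF-β) is the growth factor most often linked to fibrosis, and 10 genes that encode its ligands, receptors, latency proteins and feedback inhibitor were followed in lung fibroblast cultures of Ephb4 control and Ephb4 conditional knockout (CKO) mice. The genes were chosen by name: the ligands Tgfb1, Tgfb2 and Tgfb3, the receptors Tgfbr1, Tgfbr2 and Tgfbr3, the latent TGF-β binding proteins Ltbp1, Ltbp2 and Ltbp3, and the inhibitory SMAD gene Smad7. They are 10 of the 55421 genes in the deposited count table. All 10 were among the 10481 genes with more than 10 CPM (counts scaled to a common library total) in at least 2 libraries, to which the tests were applied. Every mouse in the study carried floxed Ephb4 alleles and a tamoxifen-inducible Cre driven by Col1a2 (Ephb4f/f;Col1a2-CreERT2), and Ephb4 can therefore be lost only from cells that express Col1a2. Mice of 4 weeks of age received 4-hydroxytamoxifen, 1 mg on each of 5 days (Ephb4 CKO), or the corn oil vehicle (Ephb4 control). At 6 weeks of age they were given PBS or 1.2 U/kg of bleomycin, an antibiotic whose lung injury leads to fibrosis, and lungs were taken on day 14. Fibroblasts were grown from them and passaged 1 time before total RNA sequencing. The 17 libraries, each from 1 mouse, were from 4 Ephb4 control PBS, 4 Ephb4 control bleomycin, 5 Ephb4 CKO PBS and 4 Ephb4 CKO bleomycin mice, numbered here within each group. The recorded sex was female in Ephb4 control PBS mice 2, 3 and 4 and control bleomycin mice 1 and 2. It was also female in CKO PBS mice 4 and 5 and CKO bleomycin mice 2 and 4, and male in the others. Animal numbers began with 12 in all Ephb4 control bleomycin mice, control PBS mouse 1, and mice 1 and 2 of each CKO group. They began with 11 in the others, so in Ephb4 control mice this number and bleomycin cannot be fully told apart. After bleomycin the number was 12 in all Ephb4 control mice but 11 in Ephb4 CKO mice 3 and 4. It can therefore not be fully told apart from genotype after bleomycin either.

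TGF-β ligands are secreted in a latent form, in which the mature growth factor stays bound to its own propeptide. Latent TGF-β binding proteins tether that complex to the extracellular matrix, from which integrins and proteases release the active ligand. The active ligand joins the type II receptor to the type I receptor, SMAD proteins carry the signal to the nucleus, and lung fibroblasts respond by making collagen and contractile proteins.

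Total counts of the libraries lay between 66540022 and 120554468. Cultures were labelled as lung fibroblasts, but their marker genes varied widely between mice. The summed CPM of 14 fibroblast markers (12 kept by the filter), among them Col1a1, Col3a1 and Pdgfra, ranged from 6180 to 11700 in Ephb4 control bleomycin mice, from 13.1 to 7040 in Ephb4 control PBS mice, from 33.2 to 1870 in Ephb4 CKO PBS mice and from 15 to 1800 in Ephb4 CKO bleomycin mice. The summed CPM of 19 macrophage markers (18 kept), among them Lyz2 and Csf1r, ranged from 1300 to 20500, from 10200 to 45100, from 22900 to 42200 and from 23400 to 43100 in the same order. In bulk RNA, fewer fibroblasts in a culture and less RNA per fibroblast cannot be told apart. The targeted gene, Ephb4, was at 13.2 to 65.1 CPM in Ephb4 control bleomycin mice and at 4.93 to 14.0 CPM in Ephb4 CKO bleomycin mice, and at 2.32 to 33.5 and 4.01 to 23.6 CPM in the corresponding PBS groups, so its ranges overlapped. Genes of the sex chromosomes went against the recorded sex in 3 libraries, mouse 2 of the Ephb4 control bleomycin group and mice 1 and 2 of the Ephb4 CKO bleomycin group, and the comparisons that use them are also given without them.

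Divided by the length of all exons of a gene, Tgfbr2 was the most abundant of the 10 transcripts, with a mean of 51.5 CPM per kb over the 17 libraries, and Tgfbr1 followed with 27.4. Tgfb1 (7.62), Ltbp2 (7.38), Tgfb3 (7.34) and Ltbp1 (5.71) came next, and Smad7 (3.48), Tgfb2 (2.51), Ltbp3 (2.43) and Tgfbr3 (2.42) were the lowest. From Tgfb1 down, neighbours in this order had overlapping values within every group, except that Tgfb1 was above Ltbp2 in all Ephb4 CKO PBS mice and that 4 pairs were apart in Ephb4 control bleomycin mice (Ltbp2 above Tgfb1, Tgfb3 above Ltbp1, Ltbp1 above Smad7 and Tgfbr3 above Ltbp3). The genes differed far more in how much they varied between mice. The highest library exceeded the lowest 243-fold for Tgfb3, 173-fold for Tgfbr3, 130-fold for Ltbp1 and 115-fold for Ltbp2, but only 4.21-fold for Tgfbr1, 4.69-fold for Tgfbr2 and 7.97-fold for Tgfb1. Of all genes tested, 96.5% varied less than Ltbp1 within groups, 96.3% less than Tgfbr3, 95% less than Tgfb3 and 92.5% less than Ltbp2, whereas for Tgfbr1 the share was 60.3%.

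**Figure D1:**
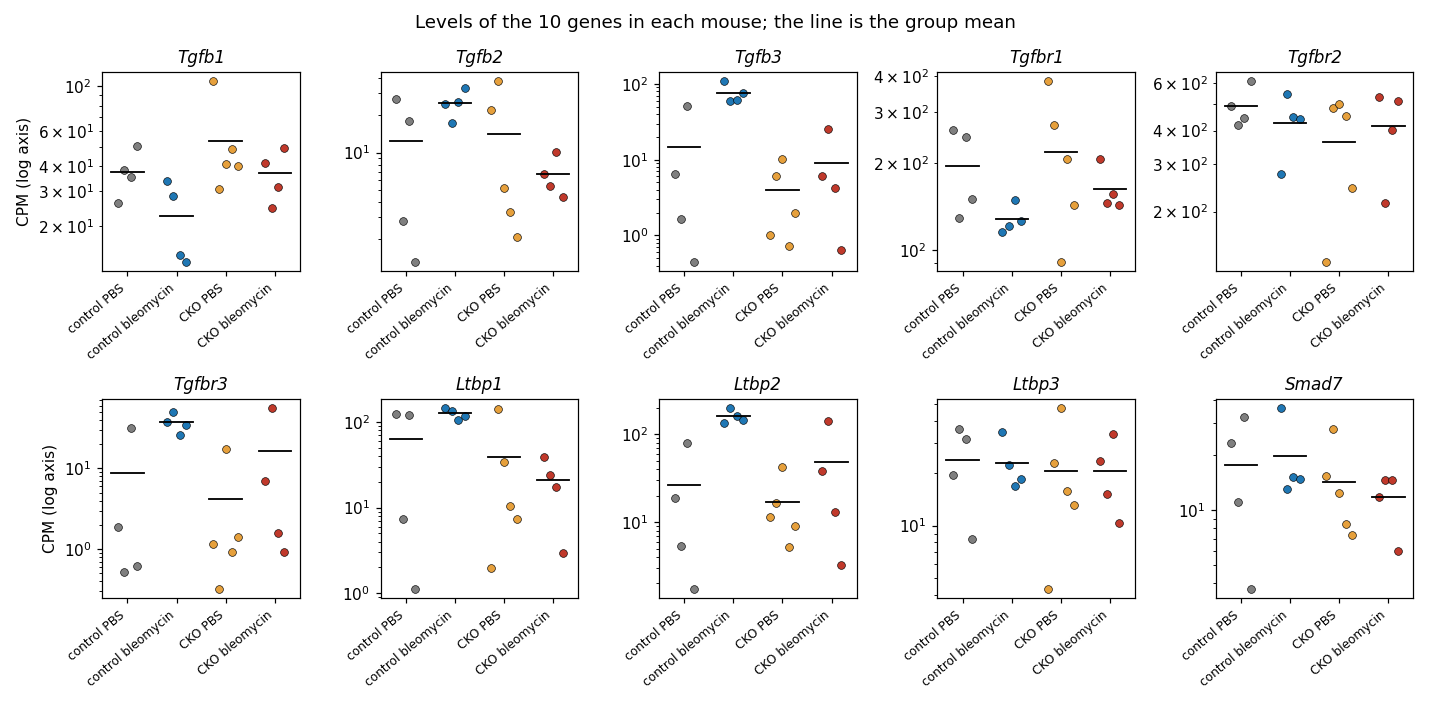
CPM of the 10 genes on log axes, 1 point per mouse and a line at the group mean, for 4 Ephb4 control PBS, 4 Ephb4 control bleomycin, 5 Ephb4 CKO PBS and 4 Ephb4 CKO bleomycin mice. Tgfb3, Tgfbr3, Ltbp1 and Ltbp2 were close together in Ephb4 control bleomycin mice and widely spread in the other groups, while Tgfbr1 and Tgfbr2 stayed within a narrow range.

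Tgfb1 (ENSMUSG00000002603, chromosome 7 from 25687002 to 25705077 on the forward strand of GRCm38) encodes the ligand most studied in fibrosis and is made by macrophages as well as fibroblasts. Its level was 26.2, 38.1, 35.4 and 50.2 CPM in Ephb4 control PBS mice 1 to 4 and 33.6, 28.5, 14.4 and 13.3 CPM in Ephb4 control bleomycin mice 1 to 4. In Ephb4 CKO mice it was 106, 30.6, 40.8, 48.6 and 40.02 CPM after PBS and 41.5, 24.6, 31.6 and 49.4 CPM after bleomycin. Ephb4 control bleomycin mice 3 and 4 thus had the lowest values of all 17 mice and Ephb4 CKO PBS mouse 1 the highest. The groups nevertheless overlapped in each comparison. By the quasi-likelihood test of edgeR, with p-values adjusted over the 10481 genes by Benjamini-Hochberg, the log2 fold change with bleomycin (over PBS) in Ephb4 control mice was −0.74 (standard error 0.40, adjusted p = 0.4). The log2 fold change between genotypes after bleomycin, of Ephb4 CKO over Ephb4 control, was 0.71 (standard error 0.40, adjusted p = 0.298).

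Tgfb2 (ENSMUSG00000039239, chromosome 1 from 186622792 to 186705989 on the reverse strand) encodes the ligand that depends most on the co-receptor betaglycan for binding. It was at 27.2, 2.81, 17.8 and 1.32 CPM in Ephb4 control PBS mice and at 24.6, 17.3, 25.6 and 33.4 CPM in Ephb4 control bleomycin mice. In Ephb4 CKO mice it was at 22.2, 37.8, 5.16, 3.30 and 2.08 CPM after PBS and at 6.78, 5.42, 10.0 and 4.42 CPM after bleomycin. All 4 Ephb4 CKO bleomycin mice were thus below all 4 Ephb4 control bleomycin mice, and PBS mice of both genotypes spanned the whole range. The log2 fold change between genotypes after bleomycin was −1.92 (standard error 0.93, 95% confidence interval −3.90 to 0.06, edgeR adjusted p = 0.252), and that with bleomycin in Ephb4 control mice was 1.04 (standard error 0.91, adjusted p = 0.587).

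Tgfb3 (ENSMUSG00000021253, chromosome 12 from 86056745 to 86079041 on the reverse strand) encodes the third ligand, which is also made by fibroblasts and other mesenchymal cells. It was at 6.43, 1.67, 50.9 and 0.451 CPM in Ephb4 control PBS mice and at 109.5, 60.3, 61.6 and 74.7 CPM in Ephb4 control bleomycin mice. In Ephb4 CKO mice it was at 0.999, 6.00, 10.2, 0.717 and 1.96 CPM after PBS and at 6.02, 25.6, 4.23 and 0.634 CPM after bleomycin. The Ephb4 control bleomycin mice were above every mouse of the other groups, and Ephb4 control PBS mouse 3 came nearest. The mean after bleomycin was 9.11 ± 11.2 CPM (SD, n = 4) in Ephb4 CKO and 76.5 ± 22.9 CPM (SD, n = 4) in Ephb4 control mice. This was the widest difference of any of the 10 genes, as the log2 fold change was −3.07 (standard error 1.31, 95% confidence interval −5.86 to −0.28). It had an unadjusted edgeR p of 0.0333 and an adjusted p of 0.228, and so did not pass the test. The change with bleomycin in Ephb4 control mice was 2.36 (standard error 1.27, adjusted p = 0.401), and 4.78 (adjusted p = 0.0776) without Ephb4 control PBS mouse 3.

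Tgfb1 and Tgfb2 stood on opposite sides of the difference between genotypes after bleomycin, and Tgfb2 and Ltbp1 both had lower levels in Ephb4 CKO bleomycin mice with no overlap. Their promoters are shown for this reason, as the 250 bases before the RefSeq transcription start on GRCm38.p6 and in the direction of transcription. For Ltbp1 the RefSeq start near the GENCODE start of the gene was chosen, and counts per gene do not show which start was in use. The intervals are chr7:25686752-25687001 on the forward strand for Tgfb1, chr1:186705990-186706239 on the reverse strand for Tgfb2 and chr17:75005279-75005528 on the forward strand for Ltbp1. Capitals mark matches on either strand to the TATA box TATAAA, the GC box GGGCGG, the cAMP response element TGACGTCA, the AP-1 site TGANTCA and the SMAD box CAGAC.
Tgfb1: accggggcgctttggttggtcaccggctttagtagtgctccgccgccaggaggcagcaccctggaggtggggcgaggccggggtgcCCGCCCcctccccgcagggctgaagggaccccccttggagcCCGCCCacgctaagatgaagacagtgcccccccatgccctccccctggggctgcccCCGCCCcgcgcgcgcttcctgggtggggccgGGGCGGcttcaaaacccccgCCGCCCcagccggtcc
Tgfb2: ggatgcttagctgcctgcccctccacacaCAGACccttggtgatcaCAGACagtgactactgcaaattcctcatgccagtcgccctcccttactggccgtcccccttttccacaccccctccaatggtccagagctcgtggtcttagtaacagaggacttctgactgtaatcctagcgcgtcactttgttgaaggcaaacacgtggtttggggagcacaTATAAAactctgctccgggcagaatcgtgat
Ltbp1: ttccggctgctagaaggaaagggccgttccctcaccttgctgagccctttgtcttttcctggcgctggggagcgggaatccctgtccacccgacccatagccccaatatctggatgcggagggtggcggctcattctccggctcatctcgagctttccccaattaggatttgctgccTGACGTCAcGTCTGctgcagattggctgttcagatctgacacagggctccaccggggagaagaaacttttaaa
The Tgfb1 promoter held 5 GC boxes and 75.2% G and C, against a median of 52.4% over 32851 mouse promoter windows of that length. That of Tgfb2 held 1 TATA box and 2 SMAD boxes at 53.6% G and C. That of Ltbp1 held 1 cAMP response element and 1 SMAD box at 56.8% G and C. None of the matches shared a base with another, and no AP-1 site was found in these windows. Of all promoter windows, 32.7% held a GC box, 12.4% the TATA box, 1.55% the cAMP response element, 6.75% the AP-1 site and 42.2% a SMAD box. These matches describe the sequences and are no evidence of binding. Promoters were matched for 7 of the 10 genes, all except Tgfb3, Tgfbr3 and Smad7.

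The mix of the ligand transcripts within a library, which does not depend on library size, set the Ephb4 control bleomycin mice apart. Per kb of exon, Tgfb3 made up 74.8, 67.4, 71.5 and 72.4% of the sum of the ligands in these mice, and Tgfb1 made up 15.4, 21.4, 11.2 and 8.67%. In Ephb4 CKO bleomycin mice Tgfb3 made up 15.9, 56.5, 13.5 and 1.75% and Tgfb1 made up 73.6, 36.5, 67.8 and 91.2%. Tgfb3 was thus the leading ligand transcript in 4 of 4 Ephb4 control bleomycin mice and in 1 of 4 Ephb4 CKO bleomycin mice, mouse 2. After PBS, Tgfb1 made up 44.1, 88.5, 27.9 and 96.5% in Ephb4 control mice and 83.6, 42.2, 67.4, 92.5 and 89.4% in Ephb4 CKO mice. Tgfb1 led in 10 of the 17 libraries, Tgfb3 in 6 and Tgfb2 in 1, Ephb4 CKO PBS mouse 2, where Tgfb2 made up 45.4%. The length used moves these shares. With the length of the principal transcript, which is much shorter than the exon union for Tgfb1, the share of Tgfb3 was 52% to 63.5% in Ephb4 control bleomycin mice and 0.789% to 38% in Ephb4 CKO bleomycin mice, and Tgfb3 led only in the 4 Ephb4 control bleomycin mice. Without the 3 libraries with sex genes against their label, the mean share of Tgfb3 was 72.9% in Ephb4 control and 7.63% in Ephb4 CKO bleomycin mice. No test was applied to these shares.

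**Figure D2:**
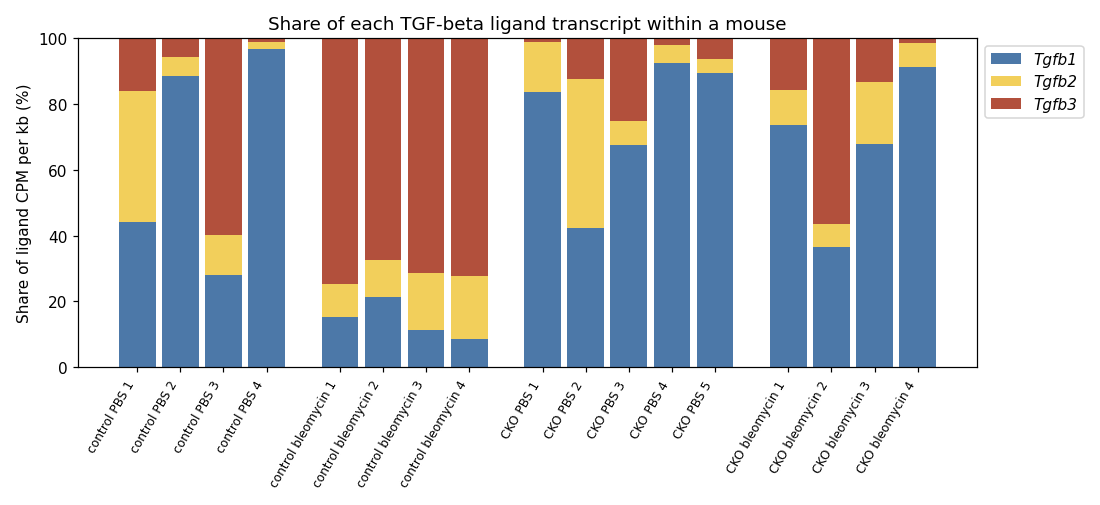
Share of Tgfb1, Tgfb2 and Tgfb3 in the sum of their CPM per kb of exon (y axis, %), 1 stacked bar per mouse, grouped by genotype and treatment. Tgfb3 makes up 67.4% to 74.8% in the 4 Ephb4 control bleomycin mice and is above 50% elsewhere only in Ephb4 control PBS mouse 3 (59.8%) and Ephb4 CKO bleomycin mouse 2 (56.5%).

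Tgfbr2 (ENSMUSG00000032440, chromosome 9 from 116084293 to 116175360 on the reverse strand) encodes the type II receptor, which binds ligand first. It was at 275.5 to 547 CPM in Ephb4 control bleomycin, 215 to 530.5 CPM in Ephb4 CKO bleomycin, 419.7 to 611 CPM in Ephb4 control PBS and 130.4 to 503 CPM in Ephb4 CKO PBS mice. Tgfbr1 (ENSMUSG00000007613, chromosome 4 from 47353222 to 47414931 on the forward strand) encodes the type I receptor kinase, which phosphorylates SMAD proteins. It was at 115.5 to 149 CPM, 143 to 207 CPM, 129 to 259.7 CPM and 91.3 to 385 CPM in the same order. Tgfbr2 was the leading receptor transcript per kb in 16 of 17 libraries, and Tgfbr1 led in Ephb4 CKO PBS mouse 1. Both receptors differed little between genotypes after bleomycin. The log2 fold change was −0.04 for Tgfbr2 (95% confidence interval −0.86 to 0.78, edgeR adjusted p = 0.957) and 0.35 for Tgfbr1 (−0.41 to 1.11, adjusted p = 0.558), so differences of up to those limits are not excluded.

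Tgfbr3 (ENSMUSG00000029287, chromosome 5 from 107106570 to 107289629 on the reverse strand), which encodes the co-receptor betaglycan, was distributed differently. It was at 1.86, 0.529, 31.8 and 0.621 CPM in Ephb4 control PBS mice and at 37.9, 49.6, 25.7 and 34.9 CPM in Ephb4 control bleomycin mice. In Ephb4 CKO mice it was at 1.15, 0.322, 17.2, 0.916 and 1.40 CPM after PBS and at 6.94, 55.7, 1.59 and 0.928 CPM after bleomycin. In each of the other 3 groups a single mouse therefore stood far above the rest, and the highest value of all 17 was in Ephb4 CKO bleomycin mouse 2. The log2 fold change between genotypes after bleomycin was −1.18 (standard error 1.49, edgeR adjusted p = 0.64), and −3.55 (adjusted p = 0.22) without that mouse. The change with bleomycin in Ephb4 control mice was 2.09 (standard error 1.53, adjusted p = 0.518), and 5.24 (adjusted p = 0.0979) without Ephb4 control PBS mouse 3.

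Ltbp1 (ENSMUSG00000001870, chromosome 17 from 75005568 to 75392512 on the forward strand) encodes a matrix protein that covalently binds latent TGF-β1. It was at 125, 7.41, 119.5 and 1.12 CPM in Ephb4 control PBS mice and at 145.5, 135, 107 and 118 CPM in Ephb4 control bleomycin mice. In Ephb4 CKO mice it was at 1.97, 141, 34.5, 10.5 and 7.27 CPM after PBS and at 39.0, 23.9, 17.6 and 2.97 CPM after bleomycin. All Ephb4 CKO bleomycin mice were below all Ephb4 control bleomycin mice, and the log2 fold change was −2.60 (standard error 1.31, 95% confidence interval −5.40 to 0.20, edgeR adjusted p = 0.263). Ephb4 control PBS mouse 1 and Ephb4 CKO PBS mouse 2 reached the level of the Ephb4 control bleomycin mice while their mean log2 CPM of fibroblast markers was only 2.59 and 0.23. These libraries had the highest Msln, a mesothelial gene, at 8.65 and 9.23 on the log2 CPM scale. Their mean log2 CPM of epithelial markers was 7.07 and 6.45. That mean was also 7.07 in Ephb4 CKO bleomycin mouse 3, where Ltbp1 was at 17.6 CPM. Of the other mesothelial markers, Upk3b and Lrrn4 averaged below 1 CPM in each group, and Wt1 averaged 7.93 CPM in Ephb4 control bleomycin mice and about 1 CPM or less in the other groups. Whether this bears on Ltbp1 was not tested.

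Ltbp2 (ENSMUSG00000002020, chromosome 12 from 84783212 to 84876532 on the reverse strand) encodes a protein of elastic fibres that does not bind latent TGF-β, and with all libraries it had the largest fold change of the 10 genes with bleomycin in Ephb4 control mice. It was at 19.0, 5.33, 78.9 and 1.73 CPM after PBS and at 136, 199, 161 and 146 CPM after bleomycin. In Ephb4 CKO mice it was at 11.4, 16.5, 42.3, 5.20 and 9.05 CPM after PBS and at 38.6, 140.5, 12.9 and 3.24 CPM after bleomycin, where mouse 2 alone was at the Ephb4 control level. The log2 fold change with bleomycin in Ephb4 control mice was 2.61 (standard error 1.13, 95% confidence interval 0.22 to 5.01), with an unadjusted edgeR p of 0.0347 and an adjusted p of 0.332. Without Ephb4 control PBS mouse 3 it was 4.24 (adjusted p = 0.0802), below the values of Tgfbr3 and Tgfb3 without that mouse. That between genotypes after bleomycin was −1.72 (standard error 1.09, adjusted p = 0.351), and −3.14 (adjusted p = 0.182) without Ephb4 CKO bleomycin mouse 2. Ltbp3 (ENSMUSG00000024940, chromosome 19 from 5740904 to 5758532 on the forward strand), another carrier of latent TGF-β, was at 17.0 to 34.4 CPM in Ephb4 control bleomycin and 10.4 to 33.9 CPM in Ephb4 CKO bleomycin mice, and the log2 fold change was −0.15 (standard error 0.59, adjusted p = 0.893).

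Smad7 (ENSMUSG00000025880, chromosome 18 from 75367529 to 75395935 on the forward strand) is a target of TGF-β signalling whose product blocks the type I receptor. It was at 36.1, 12.99, 15.3 and 14.8 CPM in Ephb4 control bleomycin mice and at 11.8, 14.6, 14.6 and 5.98 CPM in Ephb4 CKO bleomycin mice. Apart from Ephb4 control bleomycin mouse 1 the groups lay close together. In PBS mice it was at 3.73 to 32.1 CPM in Ephb4 control and 7.30 to 27.7 CPM in Ephb4 CKO mice. The log2 fold change between genotypes after bleomycin was −0.75 (standard error 0.58, edgeR adjusted p = 0.436), and −0.31 (adjusted p = 0.811) without Ephb4 control bleomycin mouse 1.

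**Figure D3:**
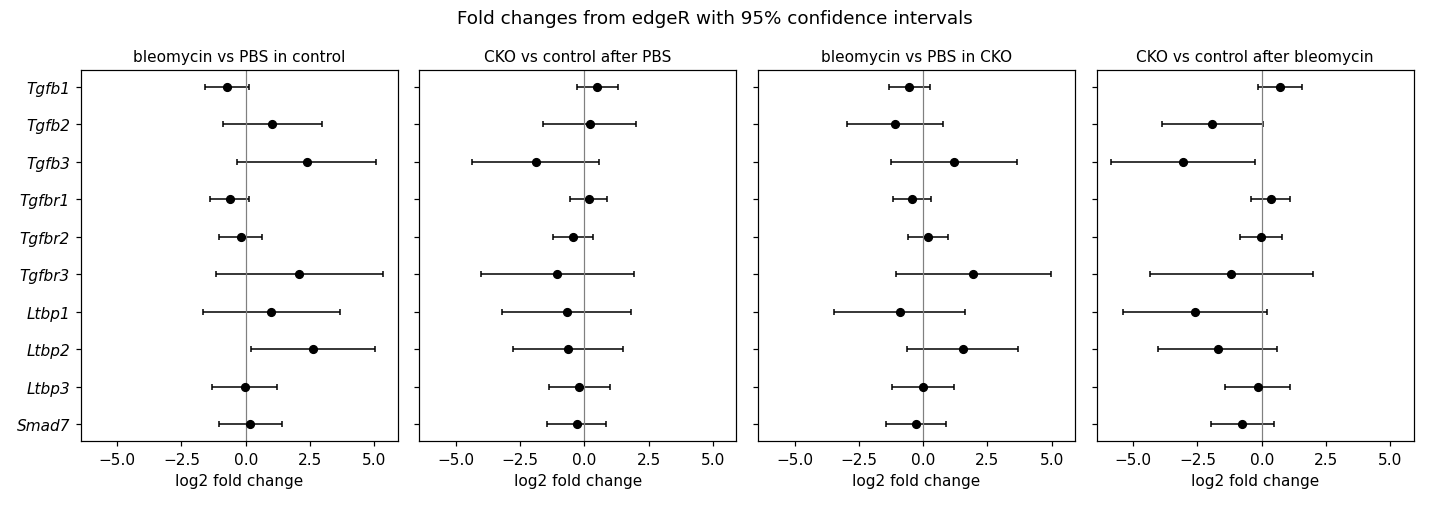
log2 fold changes (x axis) of the 10 genes in 4 comparisons, as points with 95% confidence intervals from edgeR. The intervals of Ltbp2 with bleomycin in Ephb4 control mice and of Tgfb3 between genotypes after bleomycin leave out 0 before adjustment, and Tgfb3, Tgfbr3, Ltbp1 and Ltbp2 have the widest intervals.

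Across comparisons, none of the 10 genes passed an adjusted p of 0.05 in edgeR, and none of all genes tested did (0%). With DESeq2, which called 1.58% of genes for the change with bleomycin in Ephb4 control mice and 3.81% between genotypes after bleomycin, no member was called either, and the smallest adjusted p among them was 0.141 (Ltbp2) and 0.13 (Ltbp1). DESeq2 gave no p for Tgfb3 in these comparisons. With bleomycin in Ephb4 control mice, 1 of the 10 genes (Ltbp2) had an edgeR p under 0.05 before adjustment, against 14.3% of all genes, and 2 (Tgfb3 and Ltbp2) had groups that did not overlap, against 8.91%. Between genotypes after bleomycin, 1 (Tgfb3) had such a p, against 20.2%, and 3 (Tgfb2, Tgfb3 and Ltbp1) had groups that did not overlap, against 23.1%. These shares are close to the background and say nothing particular about the members. The median log2 fold change of the members was 0.58 with bleomycin in Ephb4 control mice, against −0.06 over all genes, and −0.97 between genotypes after bleomycin, against 0.01. Both comparisons use the same 4 Ephb4 control bleomycin mice.

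Single libraries moved these counts, and the shares over all genes moved too, though not always in the same direction. The number with an unadjusted p under 0.05 after bleomycin between genotypes became 0 without Ephb4 CKO bleomycin mouse 1, 3 or 4, 2 without Ephb4 control PBS mouse 2 or Ephb4 CKO PBS mouse 1 or 5, and 3 without Ephb4 CKO bleomycin mouse 2, Ephb4 control PBS mouse 4 or Ephb4 CKO PBS mouse 2. With bleomycin in Ephb4 control mice it became 0 without Ephb4 control bleomycin mouse 2 or Ephb4 control PBS mouse 1, 2 or 4, 2 without Ephb4 control bleomycin mouse 1 or Ephb4 CKO PBS mouse 1, and 3 without Ephb4 control PBS mouse 3. Where 3 members had such a p, so did 20.8% to 24.9% of all genes, and where 0 did, 7.09% to 17.2%. Where 2 did, the share was 20.1% to 21% between genotypes after bleomycin. For the change with bleomycin in Ephb4 control mice it was 14.6% when CKO PBS mouse 1 was left out. It was 7.74% when control bleomycin mouse 1 was left out, below the 14.3% with all libraries although the count rose. Between genotypes after bleomycin, 5 members did not overlap without Ephb4 CKO bleomycin mouse 2, with Tgfbr3 and Ltbp2 added, against 34.9% of all genes. In Ephb4 control mice, 4 did not overlap between bleomycin and PBS without Ephb4 control bleomycin mouse 3, with Tgfbr3 higher and Tgfbr1 lower after bleomycin, against 10.7%.

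Without the 3 libraries with sex genes against their label, 3 Ephb4 control and 2 Ephb4 CKO bleomycin mice remained. The animal numbers of these Ephb4 control mice all began with 12, and those of these Ephb4 CKO mice with 11. Genotype and animal number can therefore not be told apart in any comparison of genotypes after bleomycin without the 3 libraries. This holds for the ligand shares above and the gene lists below as well. Between these Ephb4 control and CKO bleomycin mice 6 members did not overlap, with Smad7 added as well, against 48.5% of all genes, and 2 (Tgfb3 and Ltbp2) had an unadjusted p under 0.05, against 16.2%. The log2 fold changes were −5.12 for Tgfb3 (edgeR adjusted p = 0.301), −4.75 for Tgfbr3 (0.312), −4.24 for Ltbp2 (0.301), −3.63 for Ltbp1 (0.363), −1.99 for Tgfb2 (0.442) and −1.14 for Smad7 (0.467). Those of Tgfb1 (0.943, adjusted p = 0.361), Tgfbr2 (0.2, 0.844), Tgfbr1 (0.162, 0.882) and Ltbp3 (−0.117, 0.949) belonged to genes that overlapped. With bleomycin in Ephb4 control mice, 2 members did not overlap, against 13.1%, and 1 (Ltbp2) had an unadjusted p under 0.05, against 10.9%. The log2 fold changes there were 2.5 for Ltbp2 (adjusted p = 0.44), 2.46 for Tgfb3 (0.489), 1.91 for Tgfbr3 (0.598) and −0.855 for Tgfb1 (0.484). The interaction was −2.22 for Tgfb2 (adjusted p = 0.778) and −3.21 for Tgfb3 (0.763).

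After PBS, genotypes did not separate the genes. For Ephb4 CKO versus control, 0 of the 10 had an unadjusted edgeR p under 0.05, against 1.99% of all genes, or groups that did not overlap, against 0.248%, and DESeq2 called none of them and 0.00954% of all genes. The log2 fold changes were 0.51 for Tgfb1 (standard error 0.38), 0.20 for Tgfb2 (0.85) and −1.90 for Tgfb3 (1.16), each with an adjusted p of 1. The last value rested on Ephb4 control PBS mouse 3, without which it was 0.50. Without Ephb4 CKO PBS mouse 3, 1 member had an unadjusted p under 0.05, against 5.24% of all genes. For bleomycin versus PBS within Ephb4 CKO mice the counts were again 0, against 0.964% by unadjusted p, 0.0859% by overlap and 0.00954% by DESeq2. Without Ephb4 CKO PBS mouse 3, 2 members had an unadjusted p under 0.05 in this comparison, against 2.71% of all genes. Here the log2 fold changes were −0.53 for Tgfb1 (standard error 0.38), −1.08 for Tgfb2 (0.87) and 1.20 for Tgfb3 (1.15), with adjusted p-values of 1. The interaction, which asks whether the response to bleomycin differed between genotypes, was past an unadjusted p of 0.05 for 0 of the 10 members and for 3.46% of all genes. DESeq2 called 0% of genes for it. It was −2.12 for Tgfb2 (standard error 1.26, edgeR adjusted p = 0.916) and −1.17 for Tgfb3 (standard error 1.68, adjusted p = 0.936). The Tgfb2 value was past an unadjusted p of 0.05 without Ephb4 control PBS mouse 1, as were 4.09% of all genes. That of Tgfb3 was so without Ephb4 control PBS mouse 3 (−3.55), as were 11.9% of all genes. A difference in response was thus not detectable against the spread between these mice.

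Of the 10 genes, 3 followed the level of fibroblast marker RNA from mouse to mouse. A fibroblast score, the mean log2 CPM of the 12 markers kept, was added to the group means as a covariate, and its slope gives the change in log2 level per unit of score among mice of the same group. The slope was 0.83 for Tgfbr3 (standard error 0.08, edgeR adjusted p = 1.16e-05), 0.69 for Tgfb3 (standard error 0.11, adjusted p = 0.00108) and 0.64 for Ltbp2 (standard error 0.08, adjusted p = 0.000127). These 3 of 10 passed the test, against 6.99% of the 10469 genes outside the score. Tgfb1 (−0.07, adjusted p = 0.507), Tgfbr1 (0.01, 0.968) and Tgfbr2 (−0.05, 0.623) had slopes near 0. Tgfb2 (0.11, 0.764) and Ltbp1 (0.34, 0.46) had slopes with wide errors of 0.19 and 0.27. Without Ephb4 CKO PBS mouse 2, 5 members passed, with Ltbp1 (0.57, adjusted p = 0.0383) and Smad7 (0.24, 0.0393) added, against 14.4% of genes. The score holds collagen genes and Postn, which TGF-β also induces, and Tgfbr3 (0.912, adjusted p = 4.74e-05), Tgfb3 (0.777, 0.00108) and Ltbp2 (0.723, 9.39e-05) passed as well on a score without the genes of that list. They also passed without the 3 libraries with sex genes against their label, at 0.768 for Tgfbr3 (adjusted p = 0.000575), 0.655 for Tgfb3 (0.0206) and 0.552 for Ltbp2 (0.00263), against 5.38% of genes.

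On a score of the 18 macrophage markers kept, the slope passed only for Smad7 (−0.59, standard error 0.16, adjusted p = 0.0423), against 6.26% of the genes outside that score. That call was lost without any of 11 of the libraries taken singly and without the 3 libraries with sex genes against their label (adjusted p = 0.119). Without Ephb4 control bleomycin mouse 1, the library with the lowest macrophage score at 3.88, the slope of Tgfb2 passed as well (−2.30, adjusted p = 0.0143), so that 2 members passed against 15.2% of genes.

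The score itself was 7.82, 7.60, 7.14 and 7.71 in Ephb4 control bleomycin mice and 3.29, 5.86, 2.85 and −0.99 in Ephb4 CKO bleomycin mice, so that the level of fibroblast marker RNA and genotype cannot be told apart after bleomycin. With the score in the fit, the log2 fold change between genotypes after bleomycin was −0.715 for Tgfb3 (standard error 0.82), −1.40 for Tgfb2 (1.35), −1.19 for Ltbp1 (1.79), 0.32 for Ltbp2 (0.56) and 1.39 for Tgfbr3 (0.60), each with an edgeR adjusted p of 0.999. Of the members, only Tgfbr3 had an unadjusted p under 0.05 in this fit (0.036). The share of all genes with such a p was not computed for this fit, so that says nothing particular about Tgfbr3. The direction of Ltbp2, Tgfbr3, Ltbp3 (0.638) and Smad7 (0.106) thus turned, and the median over the members went from −0.97 to 0.21.

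**Figure D4:**
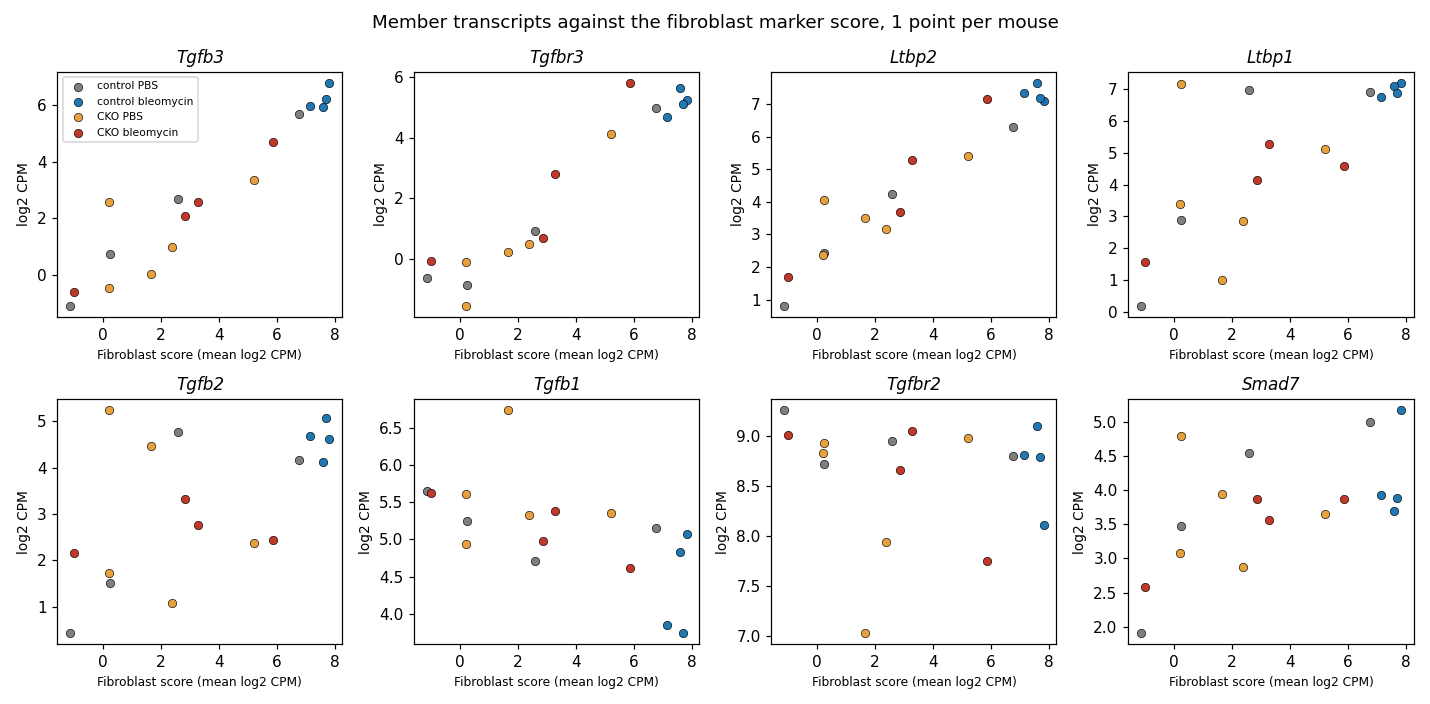
log2 CPM of 8 of the genes (y axis) against the fibroblast score, the mean log2 CPM of fibroblast markers (x axis), with 1 point per mouse coloured by group. Tgfb3, Tgfbr3 and Ltbp2 lie along rising bands that hold mice of every group, whereas Ltbp1 and Tgfb2 include Ephb4 CKO PBS mouse 2 at a high level (141 and 37.8 CPM) with a score of 0.23, and Tgfbr2 shows no band.

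The genes whose log2 CPM ran most closely with each member over the 17 libraries differed between the members. For Tgfb3 they were Serpinh1, the collagen chaperone (Pearson r = 0.986), Kctd15 (0.986) and Bicc1 (0.983). For Tgfbr3 they were Pdgfrb, a receptor of fibroblasts and pericytes (0.978), Adamts9 (0.977) and Slit3 (0.976). Ltbp2 ran with Evc2 (0.983), Fkbp10 (0.982) and Evc (0.98), and Ltbp1 with Dzip1l (0.982), Glis2 (0.982) and Robo1 (0.969). Tgfb2 ran with Schip1 (0.931), Zfp462 (0.928) and Dusp14 (0.927), and Smad7 with Rtkn (0.965), Sox4 (0.955) and Bcr (0.951). Tgfb1, by contrast, ran with the NF-κB subunit gene Nfkb1 (0.937), the urokinase receptor gene Plaur (0.895) and the chemokine gene Ccl3 (0.892). Ltbp3 ran with Hist1h2bb (0.913) and the cell cycle genes Nek2 (0.911) and Ccnb2 (0.91). The type I and type II receptors had weaker neighbours, Oga (0.861), Nkapd1 (0.838) and Avl9 (0.821) for Tgfbr1 and Acy1 (0.869), Adgrl3 (0.861) and Prickle2 (0.854) for Tgfbr2. These correlations describe mice that also share group and culture content, and no test was applied to them.

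Of the genes that activate or present latent TGF-β, 11 of 13 were tested. Between genotypes after bleomycin 0 passed the adjusted or unadjusted test, against 0% and 20.2% of all genes. Of the 11, 9 were below 0, and the median log2 fold change was −0.68. Those with the smallest p were Furin, a protease that cleaves the TGF-β propeptide (−0.68, standard error 0.33, edgeR adjusted p = 0.25), Ltbp4, the fourth binding protein (−3.72, standard error 1.83, adjusted p = 0.256), and Lrrc32, a cell surface docking protein of latent TGF-β (−2.98, standard error 1.54, adjusted p = 0.269). Ltbp4 and Lrrc32 were lower in all 4 Ephb4 CKO bleomycin mice than in all 4 Ephb4 control bleomycin mice, and Furin overlapped. Some other genes of the list did not overlap either. Ltbp4 was low in both groups, at 0.379 ± 0.339 CPM in Ephb4 CKO and 4.99 ± 3.88 CPM in Ephb4 control bleomycin mice (SD, n = 4 each). Of all genes, 23.1% had groups that did not overlap in this comparison. With bleomycin in Ephb4 control mice 9 of the 11 were above 0, 1 of them with an unadjusted p under 0.05, against 14.3% of all genes. Without the 3 libraries with sex genes against their label, 9 were again below 0 between genotypes after bleomycin, with a median of −0.947, and 4 had an unadjusted p under 0.05, against 16.2% of all genes. Furin was then at −0.568 (edgeR adjusted p = 0.479), Ltbp4 at −3.46 (0.499) and Lrrc32 at −6 (0.301).

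Of the SMAD genes and regulators of the signal, 16 of 17 were tested. Between genotypes after bleomycin 10 were below 0, and 2 of these, both lower in Ephb4 CKO mice, were past an unadjusted p of 0.05, against 20.2% of all genes, with a median of −0.28. These were Pmepa1, a feedback inhibitor that TGF-β induces (25.3 ± 12.04 CPM against 106 ± 58.3 CPM, SD, n = 4 each, log2 fold change −2.07, edgeR adjusted p = 0.212), and Bambi, a decoy receptor (−3.10, adjusted p = 0.218). Smad3, which carries the signal, gave −1.41 (adjusted p = 0.259). Without the 3 libraries the median was −0.409 with 12 below 0 and 1 past an unadjusted p of 0.05, against 16.2% of all genes. The log2 fold changes were then −2.32 for Pmepa1 (edgeR adjusted p = 0.322), −4.06 for Bambi (0.303) and −1.49 for Smad3 (0.442). With bleomycin in Ephb4 control mice 1 gene had an unadjusted p under 0.05 and was lower, against 14.3% of all genes with such a p.

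Of the genes known to be induced by TGF-β, 17 of 19 were tested, and 4 of them (Col1a1, Col1a2, Col3a1 and Postn) are also among the fibroblast markers. Between genotypes after bleomycin 15 were below 0, with a median of −2.56 against 0.01 over all genes. None passed the adjusted edgeR test, 5 had an unadjusted p under 0.05, against 20.2% of all genes, and DESeq2 called 2 lower, against 3.81%. The smallest p-values were those of Nox4, an oxidase that makes hydrogen peroxide (1.05 ± 0.78 CPM against 15.1 ± 3.44 CPM, SD, n = 4 each, log2 fold change −3.84, edgeR adjusted p = 0.216), Postn, which encodes the matrix protein periostin (−4.83, adjusted p = 0.227), and Col1a1, a chain of type I collagen (−4.70, adjusted p = 0.228). Without the 3 libraries, 16 of the list passed the filter and 13 were below 0, with a median of −5.07. Of these 16, 4 had an unadjusted p under 0.05, against 16.2% of all genes. Nox4 was then at −5.24 (edgeR adjusted p = 0.303), Postn at −9.19 (0.301) and Col1a1 at −6.86 (0.312). With bleomycin in Ephb4 control mice 15 of the 17 were above 0, with a median of 1.42 against −0.06. Of the 17, 2 had an unadjusted p under 0.05, against 14.3% of all genes. After PBS, 13 of the 17 were below 0 in Ephb4 CKO mice, with a median of −0.53. None was past an unadjusted p of 0.05, against 1.99% of all genes. The fibroblast markers as a whole moved alongside, with 12 of 12 below 0 between genotypes after bleomycin (median −3.33), and the macrophage markers opposite, with 18 of 18 above 0 (median 1.23). Without the 3 libraries these counts were 12 of 12 (median −5.53) and 15 of 18 (median 1.42). The part of culture content in the differences of these lists was not tested.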

How the data were processed

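Total RNA sequencing of 17 lung fibroblast cultures was analysed from 1 deposited table of counts per gene. Per the study's methods the authors trimmed reads of 75 bp with Cutadapt, aligned them to GRCm38 with HISAT2 2.1.0 in strand-specific mode and made the deposited counts with StringTie and its script, which divides coverage among transcripts. The authors did not normalize them. Here CPM used TMM library sizes in edgeR 4.0.16 (R 4.3.3), and log2 CPM a prior count of 2. All 17 libraries were fitted with 1 mean per group, without the study's batch term, because the labels do not give the batch. The 10481 genes above 10 CPM in 2 or more libraries were tested, with Benjamini-Hochberg adjustment at 0.05. DESeq2 1.42.0 and limma 3.58.1 (voom) were alternatives. Lengths were exon unions of GENCODE M21 on GRCm38, and promoters came from RefSeq. Each library is 1 mouse, so p-values measure the spread between mice. The procedure was tested on simulated data.

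The genes named were the 10 members, Ephb4, of each pathway list the 3 genes with the smallest p between genotypes after bleomycin, and for each member its 3 closest genes by Pearson r. Cell type markers named besides these, among them the mesothelial genes, were chosen after their values were seen. The members and lists were chosen with earlier results of these data known. The slopes on marker scores, the principal transcript lengths, the runs of columns and the analyses without the 3 libraries were added after the data were seen.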

Additional observations from a re-analysis of the deposited data

Results flagged for a closer look

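Within a group, a library was singled out where its distance to the nearest other library, as a share of the range of the group, exceeded the 95% critical value of Dixon's test. Of 40 groups of values (10 genes in 4 groups) 7 met this. The critical value holds for independent, normally distributed values. The rule was applied to CPM rather than log2 CPM, and CPM of these genes were skewed and correlated between genes. The number of 7 can therefore not be set against a rate given by chance. Tgfb1 was at 106 CPM in Ephb4 CKO PBS mouse 1, with the next at 48.6. Tgfb3 was at 50.9 CPM in Ephb4 control PBS mouse 3, with the next at 6.43. Tgfbr3 was singled out in 3 groups, at 31.8 CPM in Ephb4 control PBS mouse 3 (next 1.86), at 17.2 CPM in Ephb4 CKO PBS mouse 3 (next 1.40) and at 55.7 CPM in Ephb4 CKO bleomycin mouse 2 (next 6.94). These mice also had the highest fibroblast score of their group, at 6.76, 5.21 and 5.86. The slopes of Tgfb3 and Tgfbr3 on that score within groups passed the test, as given above. How much of these single values goes with the score was not tested. Ltbp1 was at 141 CPM in Ephb4 CKO PBS mouse 2, with the next at 34.5, where the fibroblast score was 0.23. Smad7 was at 36.0 CPM in Ephb4 control bleomycin mouse 1, with the next at 15.3, and this library had the lowest macrophage score, 3.88.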

How the results depend on the processing

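In every alternative and with each mouse left out, 0 of the 10 genes passed an adjusted p of 0.05 in any of the 5 comparisons. DESeq2 without a covariate gave no p for Tgfb3 in any of them, so Tgfb3 was not tested in that alternative. No paired analysis was possible because the mice were numbered in the order of their accessions and the labels name no litter, batch or day that a number would share. Number series is the 11 or 12 that begins an animal's number, and runs of columns are the 2 sorted stretches of columns in the deposited table. In number series 12, Ephb4 control PBS mouse 1 was the only mouse of its group. Fold changes with bleomycin in Ephb4 control mice and interactions from that series alone therefore rest on this mouse. The cause of the shifts below was not tested. Values are log2 fold changes whose sign turned, and none of them had passed the test. For bleomycin over PBS in Ephb4 control mice, Ltbp3 became 0.115 with DESeq2 and the runs of columns as a covariate, 0.104 with voom without weights, 0.0194 without the filter, 0.348 with number series as a covariate, 0.109 with the runs of columns in edgeR and 0.256 in number series 12 alone. Tgfb2 became −0.0102 with number series as a covariate and −0.0966 in number series 12 alone, Ltbp1 −0.156 with number series as a covariate, and Smad7 −0.379 with number series, −0.367 with the macrophage score and −0.224 in number series 12. With the fibroblast score, Tgfbr2 became 0.0903, Tgfbr3 −0.518, Ltbp1 −0.264 and Smad7 −0.627. For Ephb4 CKO over control after PBS, Tgfb2 became −0.0311 (DESeq2 with column runs), −0.494 (sex), −0.406 (number series) and −0.0354 (column runs in edgeR), and Tgfb3 0.022 with the fibroblast score. After bleomycin, Ltbp3 and Smad7 became 0.315 and 0.284 with the macrophage score, and Tgfbr3 1.39, Ltbp2 0.322, Ltbp3 0.638 and Smad7 0.106 with the fibroblast score. Tgfbr2 became 0.2 without the 3 libraries with sex genes against their label. For bleomycin over PBS in Ephb4 CKO mice, Tgfb3 became −0.346 with the fibroblast score and −0.748 without the 3 libraries. The interaction of Tgfb1 became −0.173 with the fibroblast score and −0.86 in number series 12. With each mouse left out in turn, values ranged from −0.331 to 0.231 for Ltbp3 and from −0.267 to 0.665 for Smad7 (bleomycin over PBS in Ephb4 control mice), from −0.584 to 0.946 for Tgfb2 and from −2.65 to 0.5 for Tgfb3 (genotypes after PBS), from −0.242 to 0.173 for Tgfbr2 and from −0.494 to 0.0697 for Ltbp3 (genotypes after bleomycin), and from −0.131 to 1.92 for Tgfb3 (bleomycin over PBS in Ephb4 CKO mice). Slopes on the fibroblast score ranged from −0.0333 to 0.229 for Tgfb2 and from −0.0382 to 0.0712 for Tgfbr1, and the slope of Tgfb1 on the macrophage score from −0.231 to 0.152. The number of members with a called slope ranged from 3 to 5 on the fibroblast score and from 0 to 2 on the macrophage score, where it was 0 without the 3 libraries. With bleomycin in Ephb4 control mice, the number with an unadjusted p under 0.05 went from 1 to 0 with the fibroblast score and to 4 with voom. Between genotypes after bleomycin it went from 1 to 0 with the macrophage score and to 4 with voom. The share over all genes was not computed in these fits, so the counts say nothing particular about the members. Counts from number series 12 alone are not given, because Ephb4 control PBS mouse 1 was alone in its group there. With a depth of at least 66540022 counts, precision was limited by the spread between mice.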
